A study of Rattus norvegicus with 8 samples.

Results

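The MYC, MAX and MXD network was taken as 7 genes, Myc, Mycn, Max, Mxd1, Mxd4, Mxi1 and Mnt. All probe sets to which the array's annotation gives 1 of these symbols, and no other, were used, and there were 9 of them among 31042 probe sets tested. Max and Mxi1 had 2 probe sets each and the other 5 genes 1 each. Of the 31042 probe sets tested, 20826 carried a single symbol, and these stood for 14217 genes.

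RNA came from 4 hearts perfused for 2 h with 2 µM doxorubicin and from 4 control hearts perfused for 2 h without drug, each on its own Affymetrix array. The hearts were taken from male Wistar rats of about 300 g, whose age the labels do not give, and were perfused outside the body by the Langendorff method, with fluid entering through the aorta and passing the coronary vessels once. Doxorubicin is an anthracycline cancer drug that binds DNA and traps topoisomerase II on it. The hearts are biological replicates per the labels. The limma p-values set the difference between groups against the spread between hearts, which limma moderates across probe sets.

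MYC and its relative MYCN are transcription factors that act mainly as partners of MAX. The MYC:MAX pair binds the E-box CACGTG and raises transcription of genes for growth, ribosome assembly and metabolism. MXD1, MXI1, MXD4 and MNT compete for MAX, bind the same E-box and recruit SIN3 corepressors, so that their balance with MYC is thought to set the output of shared targets. Both the Myc mRNA and its protein turn over quickly, and in the heart Myc is known as an early response gene to load and to hormones.

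The E-box itself occurs in the upstream region of several network genes. Windows from 250 bases before to 50 bases after the start of the gene were matched in RefSeq (GRCr8) for 5 of the 7 genes, Max, Mxd1, Mxd4, Mxi1 and Mnt. One CACGTG, which reads the same on both strands, was found in those of Max, Mxd4 and Mnt, and none in those of Mxd1 and Mxi1. Among all 33469 windows of this length, 6.42% held it, and among the 11700 measured genes with a matched window 1051 did. The stretches around the 3 matches are given below on the gene's own strand, all before the start of the gene, with the E-box in capitals. They lie at chr6:101395291-101395370 (minus strand, Max), chr14:80786537-80786636 (plus strand, Mxd4) and chr10:60197789-60197888 (plus strand, Mnt). The first base of the E-box is 33 bases before the start in Max, 197 in Mxd4 and 123 in Mnt.
Max: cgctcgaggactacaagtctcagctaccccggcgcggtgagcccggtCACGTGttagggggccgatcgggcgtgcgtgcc
Mxd4: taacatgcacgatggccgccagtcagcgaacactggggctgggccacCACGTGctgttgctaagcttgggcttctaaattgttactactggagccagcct
Mnt: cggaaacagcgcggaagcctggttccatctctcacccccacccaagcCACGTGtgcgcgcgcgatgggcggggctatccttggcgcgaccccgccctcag
A match of these letters is a description of the window and not evidence of binding.

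Within the network, Myc fell and no probe set of the other 6 genes passed the test. Levels are log2 of the deposited intensity values, and a probe set was called changed at a limma adjusted p under 0.05, corrected over all 31042 probe sets. In the doxorubicin hearts 1 to 4, Myc (1368308_at) stood at 7.65, 7.79, 7.28 and 7.78 log2, and in the control hearts 1 to 4 at 8.72, 8.66, 8.51 and 8.47 log2. Every doxorubicin heart lay below every control heart, and doxorubicin heart 3 was the lowest of all. The groups of 4 hearts were apart in this direction for 4.02% of all probe sets.

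The mean Myc level was 7.63 ± 0.24 log2 with doxorubicin and 8.59 ± 0.12 log2 in control hearts (SD, n = 4 each). The difference of -0.97 (SE 0.12, 95% interval -1.22 to -0.71) corresponds to 0.512 times the control level, with an interval of 0.428 to 0.612 (limma adjusted p = 0.00213). Among the 14217 genes, each read by its brightest probe set, 98 had a lower difference than Myc, and 93 of those were called. Without doxorubicin heart 3 the Myc difference was -0.85 and its adjusted p 0.00150.

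Myc was the 1 called probe set of the 9 in the network. Over all probe sets 2.21% were called, 1.52% as lower and 0.689% as higher, and 1 call among 9 is too small a count to read as a share. The 214 probe sets called higher numbered 76 without doxorubicin heart 1, 395 without control heart 2 and 8 with the covariate described next, while the 473 called lower numbered 321, 459 and 84. The 18 probe sets for hybridization controls, which are foreign transcripts spiked in before hybridization, moved with the groups. Their mean was 9.97 to 10.1 log2 on the doxorubicin arrays and 10.2 to 10.6 log2 on the control arrays (difference -0.30, exact permutation p = 0.0286, the smallest that 4 against 4 arrays allow, adjusted p = 0.286 over 10 array measures). These ranges do not overlap, so a fit with that level as a covariate can hardly tell it apart from the treatment. In that fit the Myc difference was -1.01 with an SE of 0.20, beside 0.12 without the covariate, and the call was lost (limma adjusted p = 0.153). The call was also narrowly lost when the variances were not moderated across probe sets (difference -0.97, limma-fitted linear model, adjusted p = 0.0574).

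**Figure D1:**
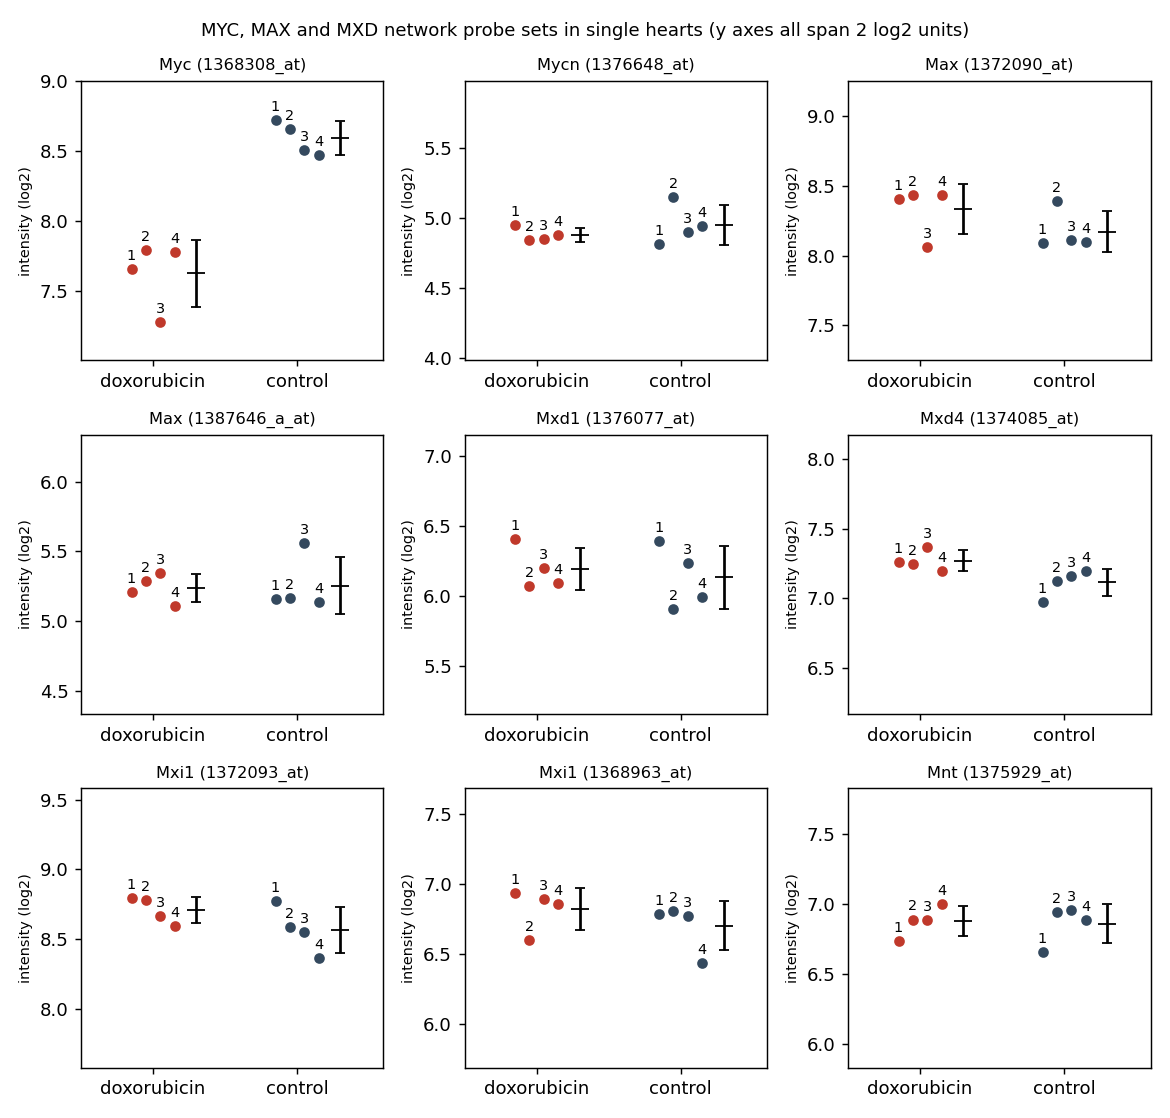
Level of each of the 9 probe sets (y axis, log2 intensity, each panel spanning 2 log2 units) in the 4 doxorubicin hearts and the 4 control hearts, with the heart's number beside its point and the mean and SD to the right of each group. Only the Myc panel shows groups that do not overlap, with doxorubicin hearts at 7.28 to 7.79 log2 and control hearts at 8.47 to 8.72 log2.

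Mycn, which has the same partner and the same E-box as Myc and is best known from embryonic tissue, did not pass the test. Doxorubicin hearts 1 to 4 had Mycn levels of 4.95, 4.84, 4.85 and 4.88 log2, beside 4.81, 5.15, 4.90 and 4.94 log2 in control hearts 1 to 4. The groups overlapped, and control heart 1 was the lowest of the 8. The difference was -0.07 (SE 0.08, 95% interval -0.24 to 0.10, limma adjusted p = 0.785). Without control heart 1 it was -0.12 and without control heart 2 -0.0037. The level lay above 4.16 log2, the boundary of the dimmest 25% of probe sets, but the deposited values carry no detection calls.

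Max, the shared partner of all the others, was read by 2 probe sets and passed with neither. The brighter one (1372090_at) gave 8.41, 8.44, 8.06 and 8.43 log2 in the doxorubicin hearts, beside 8.09, 8.39, 8.11 and 8.09 log2 in the control hearts. These values formed a high and a low level, with doxorubicin hearts 1, 2 and 4 and control heart 2 at the high level and the other 4 hearts at the low one. The difference was 0.16 (SE 0.10, 95% interval -0.07 to 0.39, limma adjusted p = 0.573). Without doxorubicin heart 3 it was 0.25 (95% interval 0.06 to 0.44, limma adjusted p = 0.259), and without control heart 2 it was 0.23 (0.02 to 0.45, adjusted p = 0.262).

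The dimmer Max probe set (1387646_a_at) stood at 5.21, 5.29, 5.34 and 5.11 log2 with doxorubicin and at 5.16, 5.16, 5.56 and 5.14 log2 in control hearts. Control heart 3 was the highest here, and the split of the brighter probe set was not repeated. The difference was -0.02 (SE 0.10, 95% interval -0.24 to 0.21, limma adjusted p = 0.971).

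None of the 5 probe sets for MYC antagonists passed, and the upper ends of their 95% intervals were at most 1.28-fold. Mxd1, which encodes a MAX-binding repressor known from differentiating cells, stood at 6.40, 6.07, 6.20 and 6.09 log2 in doxorubicin hearts, beside 6.39, 5.90, 6.23 and 5.99 log2 in controls. The groups overlapped almost wholly (difference 0.06, SE 0.12, 95% interval -0.20 to 0.32, limma adjusted p = 0.895).

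Mxd4, another MXD repressor, had the smallest p of the 8 probe sets that were not called. Its levels were 7.26, 7.25, 7.37 and 7.20 log2 with doxorubicin and 6.97, 7.12, 7.16 and 7.20 log2 in control hearts, so that the ranges met at doxorubicin heart 4 and control heart 4. The difference was 0.16 (SE 0.07, 95% interval 0.01 to 0.31), with an unadjusted p of 0.0440 and a limma adjusted p of 0.348.

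Mxi1, the MXD family member also called MXD2, was read by 2 probe sets. The brighter one (1372093_at) stood at 8.79, 8.78, 8.67 and 8.59 log2 with doxorubicin and at 8.77, 8.59, 8.55 and 8.37 log2 in control hearts (difference 0.14, SE 0.09, 95% interval -0.06 to 0.34, limma adjusted p = 0.574). The other (1368963_at) stood at 6.93, 6.60, 6.90 and 6.86 log2 with doxorubicin and at 6.78, 6.81, 6.78 and 6.44 log2 in control hearts (difference 0.12, SE 0.10, 95% interval -0.11 to 0.35, limma adjusted p = 0.707). In both probe sets control heart 4 was the lowest of the 8 hearts, and the groups overlapped. Without it the differences were 0.07 for the brighter and 0.03 for the dimmer probe set, and without doxorubicin heart 2 the dimmer one stood at 0.20.

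Mnt, which encodes a widely expressed repressor of the same E-boxes, had levels of 6.73, 6.89, 6.89 and 7.001 log2 with doxorubicin and of 6.65, 6.94, 6.95 and 6.89 log2 in control hearts. Heart 1 was the lowest in each group, and the difference was 0.02 (SE 0.08, 95% interval -0.17 to 0.21, limma adjusted p = 0.963). Over the 8 probe sets other than Myc, differences ran from -0.07 to 0.16, and their 95% intervals ran from 0.845 to 1.31 times the control level. With the level of the hybridization controls as covariate the intervals were wider, from -0.42 (Mycn) to 0.71 (Mxd1, difference 0.31) on the log2 scale, and none of the 8 was called in limma (adjusted p at least 0.821).

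**Figure D2:**
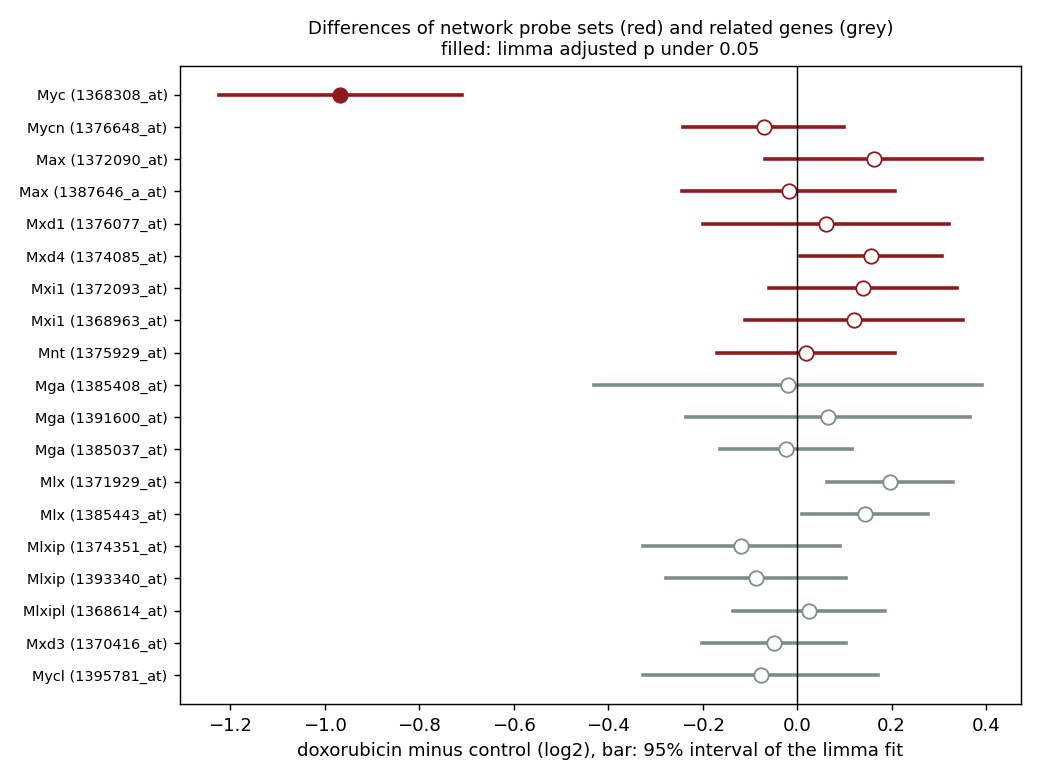
Difference between doxorubicin and control hearts (x axis, log2) with its 95% interval from limma for the 9 network probe sets (red) and for 10 probe sets of 6 related genes (grey). Filled points passed at an adjusted p under 0.05, and Myc at -0.97 is the 1 filled point, with an interval clear of those of the other network probe sets.

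Since a call in one gene and none in another does not show that they differ, the Myc change was set against that of each other member within the same arrays, using its brightest probe set. This comparison cancels any scaling of a whole array. The Myc change was lower than that of Max by 1.13 log2 units, for a per-array Myc minus Max value of -0.71 ± 0.07 with doxorubicin and 0.42 ± 0.15 in control hearts (SD, n = 4 each, exact permutation test). The corresponding differences were -0.90 against Mycn, -1.03 against Mxd1, -1.12 against Mxd4, -1.11 against Mxi1 and -0.99 against Mnt. In each of the 6 pairs all 4 doxorubicin hearts lay below all 4 control hearts, which gives the smallest exact two-sided permutation p that 4 against 4 hearts allow, 0.0286 (0.0286 also after Benjamini-Hochberg adjustment over the 6 pairs). The 6 pairs share the Myc values and are not independent. No other network probe set spanned more than 0.50 log2 over all the hearts, less than the gap between the Myc groups (7.79 to 8.47 log2). The separation in every pair, and so its p, was therefore fixed by Myc alone, and the p is no separate test of any pair.

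Related genes that extend the network were measured for Mlx, Mlxip, Mlxipl, Mga, Mxd3 and Mycl. None of the 6 was called in limma, beside 2.97% of all genes, a count too small to read against that share. Before adjustment 1 was higher and none lower at p under 0.05, beside 9.67% higher and 7.07% lower over all genes, with a median difference of -0.03, against 0.0063 for all genes. Mlx, the MAX-like partner of the MondoA and ChREBP factors, stood at 8.26, 8.19, 8.22 and 8.12 log2 with doxorubicin and at 7.90, 8.02, 8.05 and 8.04 log2 in control hearts. All 4 doxorubicin hearts lay above all controls (difference 0.20, SE 0.06, limma adjusted p = 0.156), as for 5.75% of all genes, and its second probe set gave 0.14. Mlxip, which encodes MondoA, stood at -0.12 (SE 0.09, limma adjusted p = 0.672).

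Of 18 measured genes for cofactors of MYC and for the SIN3 and NCOR corepressors, 1 rose and none fell, a share of 5.56% beside 2.97% for all genes called (2.17% lower and 0.802% higher). The called gene was Hdac1, a histone deacetylase of the SIN3 complex, at 7.86, 7.69, 7.95 and 7.93 log2 with doxorubicin and 7.03, 7.48, 7.45 and 7.45 log2 in control hearts. Its difference of 0.50 (SE 0.11, limma adjusted p = 0.0434) was past the threshold by little. It lost the call without any one of doxorubicin hearts 1 to 4 and control hearts 3 and 4 (differences 0.47 to 0.56, adjusted p 0.0548 to 0.130), and its second probe set stood at 0.24 without passing. Crebbp, a histone acetyltransferase gene, stood at -0.48 (SE 0.11, limma adjusted p = 0.0607) without passing, with 7.45 to 7.71 log2 in doxorubicin hearts and 7.82 to 8.31 log2 in control hearts.

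No gene for the turnover of the MYC protein was called in limma among 13 measured, a count near the 2.97% of all genes, with a median difference of -0.06. Before adjustment 3 were higher and 2 lower at p under 0.05. Those shares of unadjusted p-values were 9.67% higher and 7.07% lower over all genes. The deubiquitinase genes Usp37 (-0.25, SE 0.08, limma adjusted p = 0.177) and Usp28 (0.16, SE 0.05, limma adjusted p = 0.196) had the smallest p-values. Fbxw7, the ubiquitin ligase subunit that recognises phosphorylated MYC, stood at -0.14 (SE 0.14, limma adjusted p = 0.754).

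Genes known to be activated by MYC were called at a share near that of all genes. Of 43 measured, Mat2a fell, none rose and 42 did not pass, a called share of 2.33% beside 2.97% of all genes, which is no result about the list. In all, 31 of the 43 had positive differences, a count not read as a result since its share over all genes was not set out. The list's median difference was 0.12 (mean 0.07), against 0.0063 for all genes. Before adjustment 11 of the 43 were higher and 3 lower at p under 0.05, where 9.67% of all genes were higher and 7.07% lower. In 9 of the 43 all doxorubicin hearts lay above all control hearts, and in 2 of the 43 below, against 5.75% and 4.69% of all genes.

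The gene that fell was Mat2a, which makes the methyl donor S-adenosylmethionine. It stood at 9.44, 9.21, 9.24 and 9.36 log2 with doxorubicin and at 10.89, 10.27, 10.33 and 10.43 log2 in control hearts (difference -1.17, SE 0.13, limma adjusted p = 0.00115). A second Mat2a probe set, at 8.05 log2 with doxorubicin and 9.24 log2 in control hearts, gave -1.20 without passing (limma adjusted p = 0.121). Another, much dimmer at 4.68 log2 with doxorubicin and 4.69 log2 in control hearts, gave -0.01. With the level of the hybridization controls as covariate Mat2a stood at -1.20 and lost the call (limma adjusted p = 0.116).

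The next genes by p did not pass, and most stood higher with doxorubicin. Odc1, the first enzyme of polyamine synthesis and a textbook MYC target, stood at 9.90, 9.75, 9.86 and 9.80 log2 with doxorubicin and at 9.47, 9.52, 9.65 and 9.56 log2 in control hearts (difference 0.28, SE 0.06, limma adjusted p = 0.0534). The cell cycle kinase gene Cdk4 stood at 0.29 (SE 0.06, limma adjusted p = 0.0566) and the RNA helicase gene Ddx18, which serves ribosome assembly, at 0.28 (SE 0.07, limma adjusted p = 0.0675). When each array was centred on its median, which shifted the median of all probe sets to 0.02, Odc1, Cdk4 and Ddx18 passed as higher and the count of called genes in the list was 4. The amino acid transporter gene Slc7a5 stood lower, at -0.34 (SE 0.08, limma adjusted p = 0.0795).

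Genes reported to be held down by MYC included 5 that fell and none that rose of 17 measured, with 12 that did not pass, a share called of 29.4% beside 2.97% of all genes. The list median was -0.12 and its mean -0.40. Before adjustment 5 of the 17 were lower and 1 higher at p under 0.05, where 7.07% of all genes were lower and 9.67% higher. The higher one was Id2, at 0.58 (SE 0.18, limma adjusted p = 0.174). In 5 of the 17 all doxorubicin hearts lay below all control hearts, and in 1 above, against 4.69% and 5.75% of all genes. The 3 members of the GADD45 family, which act in growth arrest and stress kinase signalling, carried the mean. Gadd45g fell by 3.43 (SE 0.20, limma adjusted p = 2.75e-05), Gadd45a by 1.11 (SE 0.09, limma adjusted p = 2.40e-04) and Gadd45b by 1.04 (SE 0.10, limma adjusted p = 4.01e-04), and in each the doxorubicin hearts lay below all controls. Falls of Gadd45g and Gadd45a in these hearts were already known when the list was made, and all lists were chosen with earlier results of these data known. Neither the called share of this list nor its direction is therefore independent evidence.

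The zinc finger gene Klf6 fell by 0.73 (SE 0.10, limma adjusted p = 0.00390), and its other probe sets fell by 1.01 and 1.03. Gas5, a non-coding RNA that hosts small nucleolar RNAs, fell by 0.90 (SE 0.17, limma adjusted p = 0.0241), and its second probe set by 0.69. Gas5 lost the call without any one of doxorubicin hearts 1 and 3 and control hearts 3 and 4 (differences -0.96 to -0.92, adjusted p 0.0515 to 0.0631). With the level of the hybridization controls as covariate the 3 GADD45 genes kept their calls, while Klf6 stood at -0.54 (limma adjusted p = 0.393) and Gas5 at -0.95 (limma adjusted p = 0.497).

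**Figure D3:**
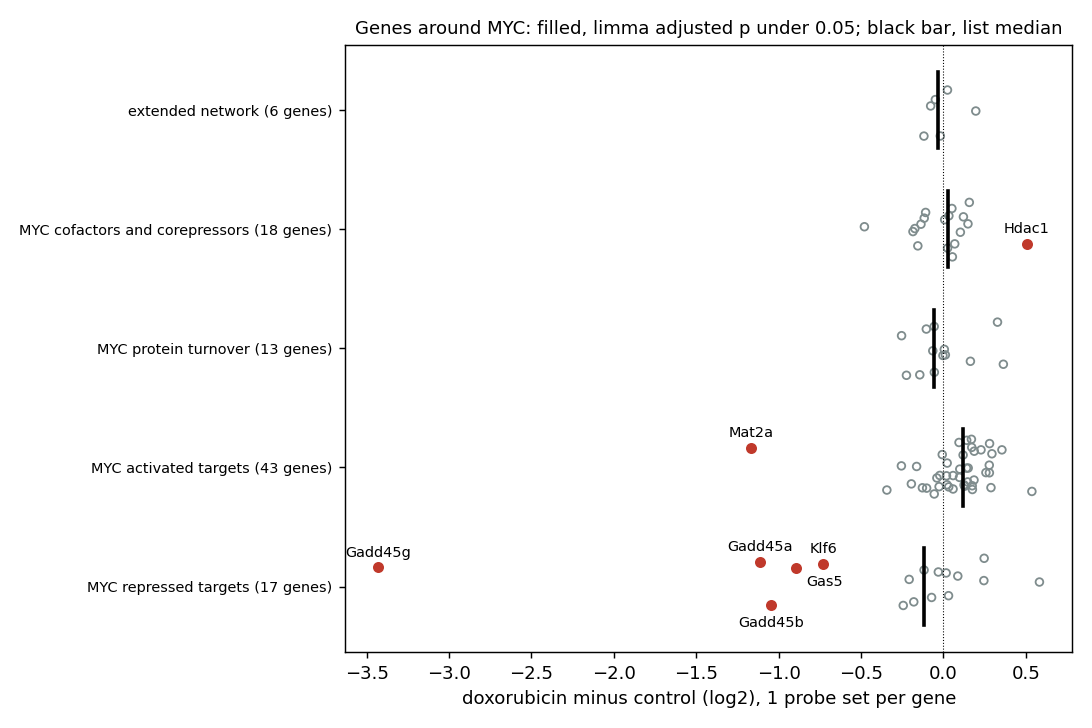
Difference between doxorubicin and control hearts (x axis, log2) for the measured genes of 5 lists around MYC, 1 probe set per gene, with the list median as a black bar. Filled, named points passed at a limma adjusted p under 0.05. In the activated list the called gene Mat2a lies at -1.17, and the called genes of the repressed list all lie left of 0.

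Called shares were also set out for genes with and without the E-box in their upstream window, with no test. Of 11700 measured genes with a matched window, 1051 held CACGTG. Among those 2.09% were called lower and 0.761% higher, with a median difference of 0.04, while among the 10649 genes without it 2.04% were called lower and 0.836% higher, with a median of 0.0063. The motif was in the windows of 10 of 35 genes of the activated list for which a window was matched, and of 3 of 13 in the repressed list.

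Over the 8 hearts the levels that followed Myc most closely were those of Hivep2, Smad1, Uaca, Baz1a and Tifa, among 13982 other genes with a name that is not only a locus number. Pearson's r with Myc was 0.991 for Hivep2 (a zinc finger factor), 0.990 for Smad1 (a signal transducer of BMP receptors), 0.985 for Uaca, 0.984 for Baz1a (a subunit of chromatin remodelling complexes) and 0.983 for Tifa (an adaptor of NF-kB signalling). These values describe 8 hearts that fall into 2 groups, so r reflects the difference between the groups as well as the spread within them. Hivep2 stood at 6.41, 6.54, 6.12 and 6.46 log2 with doxorubicin and at 7.03, 7.10, 7.01 and 7.01 log2 in control hearts, with doxorubicin heart 3 lowest as for Myc. All 5 genes fell, by 0.57 to 0.92 on the log2 scale. The lowest r were those of Lmod3 (-0.985), an actin-nucleating muscle gene that rose by 1.03 (SE 0.09, limma adjusted p = 2.78e-04), Prelid3b (-0.980, difference 0.14, not called) and Psma1 (-0.978, difference 0.18, not called), which encodes a proteasome subunit.

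The hearts were checked as heart tissue and for their cell makeup. All 7 measured cardiomyocyte markers lay above the dimmest 25% of probe sets and none was called. Their summed level was 96473 to 99917 intensity units in doxorubicin hearts and 95058 to 97378 in control hearts. Summed levels also overlapped for endothelium (2104 to 2511 with doxorubicin, 2236 to 2457 in control), fibroblasts (13228 to 17393, control 9767 to 15822), smooth muscle and pericytes (1671 to 2427, control 1517 to 2525) and macrophages and leukocytes (886 to 1125, control 743 to 947), and the T cell marker Cd3e was in the dimmest 25%. Atrial muscle markers ranged most, with 1504 to 20463 in doxorubicin hearts and 1249 to 10366 in control hearts, and fat markers ranged over 2627 to 4743 with doxorubicin and 2541 to 2981 in control. Of the 44 markers measured, only Tie1, an endothelial receptor gene, was called, where 2.97% of all genes were. It rose by 0.34 (limma adjusted p = 0.0148). The other endothelial markers went both ways without passing, with Tek at 0.13, Vwf at 0.20, Pecam1 at -0.16 and Kdr at -0.22. The part of cell makeup in the Myc difference was not tested, and in whole hearts fewer cells of a type and less RNA per cell cannot be told apart.

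**Figure D4:**
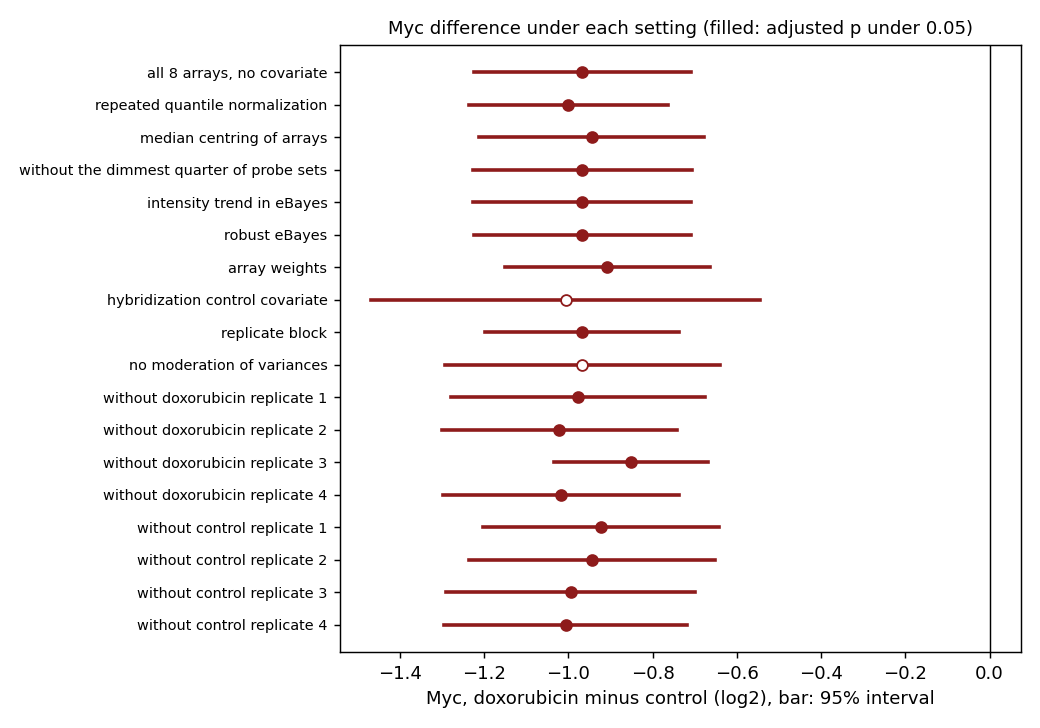
Myc difference between doxorubicin and control hearts (x axis, log2) with its 95% interval under the main setting (top) and 17 alternatives. Filled points have an adjusted p under 0.05. The difference lies between -1.02 and -0.85 throughout, and the open points are the fit with the hybridization control covariate and the fit without moderated variances.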

How the data were processed

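RNA of 8 rat hearts was measured on Affymetrix arrays, 4 per group. The intensity values were made with RMA by the authors, per the submitters' processing notes. Its software and version were not given in the sources used here. They were on a linear scale (array medians 29.9 to 31.0), so log2 was taken with no offset. RMA makes the arrays' distributions alike, so a shift shared by most transcripts would not show. Arrays have no sequencing depth, and their number limits the precision.

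After leaving out 57 control probe sets, the 2 groups were fitted with lmFit and eBayes of limma 3.58.1 (R 4.3.3, all 8 arrays, no covariate), with two-sided p-values adjusted by Benjamini-Hochberg over 31042 probe sets. The script was tested on simulated data. A listed gene was read by its brightest probe set, with symbols updated through RefSeq gene IDs. Single values were compared by exact permutation over 70 splits (scipy 1.17.1). Named were all member probe sets, called genes of the 5 lists and those with the smallest p-values, and the genes most like Myc. From the turnover list Fbxw7, from the extended list Mlxip and from the repressed list Id2 were named in addition, after their values were seen. So were the endothelial markers Tie1, Tek, Vwf, Pecam1 and Kdr and the T cell marker Cd3e. Of the 110 genes of the 5 lists 97 were measured. The members and lists were chosen with earlier results of these data known. Alternatives were another normalization, a filter on dim probe sets, other variance models, covariates, a replicate block and leaving out each array.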

Additional observations from a re-analysis of the deposited data

Results flagged for a closer look

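In 7 of 38 groups of 4 hearts that were looked at, 1 heart stood apart from the other 3 by more than a Dixon test allows. Chance flags about 1 group in 20. The brighter Max probe set was flagged in both groups, for doxorubicin heart 3 at 8.06 log2 against 8.41 to 8.44 in the others, and for control heart 2 at 8.39 log2 against 8.09 to 8.11. The dimmer Max probe set was flagged for control heart 3, at 5.56 log2 against 5.14 to 5.16. The dimmer Mxi1 probe set was flagged for control heart 4, at 6.44 log2 against 6.78 to 6.81.

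Of the array measures, the hybridization control level of doxorubicin heart 1 was 10.13 log2 against 9.97 to 9.99 in the other doxorubicin hearts. Doxorubicin heart 4 had the highest summed fibroblast markers, 17393 against 13228 to 13517, and the highest summed macrophage and leukocyte markers, 1125 against 886 to 917. Its Myc level, 7.78 log2, lay within the range of the other doxorubicin hearts.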

How the results depend on the processing

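The Myc difference kept its sign under all 17 alternatives (-1.02 to -0.85) and its call under 15, with adjusted p from 7.48e-04 to 0.153. The exceptions were the hybridization control covariate (-1.01, 0 member probe sets called, 92 of all probe sets called) and no moderation of variances (-0.97, 0 and 170). No other member was called under any alternative (lowest adjusted p 0.250). Over all probe sets 687 were called, and 397 to 854 when 1 array was left out, of which 19.1% (without doxorubicin heart 1) to 46.3% (without control heart 2) were higher.

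Differences near 0 changed sign. The dimmer Max probe set stood at 0.0011 with repeated quantile normalization, 0.0048 with median centring and 0.26 with the covariate, and at -0.056 to 0.084 when 1 array was left out. Mnt stood at -0.013 with array weights and -0.049 to 0.067, and Mxd1 at -0.014 to 0.15, when 1 array was left out.

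The count of called cofactor genes (1) was 2 without the dimmest 25% and with array weights, 0 with the covariate, the replicate block, no moderation and the mean of a gene's probe sets, and 0 to 2 when 1 array was left out. For activated targets (1) it was 4 with median centring, 2 with array weights, 0 with the covariate, 3 with the mean of probe sets and 1 to 2 when 1 array was left out. For repressed targets (5) it was 3 with the covariate and with no moderation.

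When 1 array was left out, Myc minus Mycn was -0.96 to -0.79, Max -1.18 to -1.06, Mxd1 -1.12 to -0.91, Mxd4 -1.20 to -0.97, Mxi1 -1.20 to -1.0 and Mnt -1.05 to -0.87, where 4 against 3 hearts cannot reach the threshold (smallest p 0.0571). The hearts' replicate numbers gave correlations of deviations from -0.18 to 0.06 over all probe sets, which do not exclude a pairing by these numbers. With the replicate numbers as a block Myc stood at -0.97 (limma adjusted p = 0.00523). The values against Mycn, Max, Mxd1, Mxd4, Mxi1 and Mnt stood at -0.90, -1.13, -1.03, -1.12, -1.11 and -0.99, for which 4 pairs allow no p below 0.125. A second Myc probe set was not run, since there is 1.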
